A study of Mus musculus with 4 samples.

Results

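The amino acid carriers described here are 45 of the 16706 genes measured in this study. They were chosen by name: every gene symbol made of Slc1a, Slc3a, Slc6a, Slc7a, Slc36a, Slc38a or Slc43a and a number alone. They divide into 5 Slc1a, 2 Slc3a, 11 Slc6a, 13 Slc7a, 3 Slc36a, 8 Slc38a and 3 Slc43a genes. The rule uses names and no measured value, though it was chosen with earlier results of these data known. In these families, 4 symbols with a letter suffix stayed outside it. The cells came from whole kidneys of male C57Bl/6 mice of 9 weeks with the genotype Pax2.rtTA;TetO.Cre;R26.Confetti, an inducible Cre driven from the Pax2 promoter with a multicolour reporter. A glomerulonephritis had been started in every mouse, those given vehicle included, with anti-GBM serum (against the basement membrane of the glomerulus), and all were killed on day 7. From day 1, 2 groups received a histone deacetylase inhibitor, panobinostat (15 mg/kg) or givinostat (10 mg/kg). Another received ruxolitinib (60 mg/kg), which inhibits the kinases JAK1 and JAK2, and the last received the vehicle, distilled water. No group lacked the serum, so none of the values describes a healthy kidney. The labels give 2 mice and 1 droplet library of 3′ ends per group, and do not say whether a library pools both mice. The library with no drug in its barcode name was taken as vehicle. There is no replicate, so no test was made. Intervals are exact 95% intervals for counting error only, and each difference is between libraries. The 3 drug libraries are all set against the same vehicle library.

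The kidney filters free amino acids and takes nearly all of them back in the proximal tubule. Carriers of the brush border, such as Slc6a19 (B0AT1, neutral amino acids) and the pair of Slc3a1 (rBAT) and Slc7a9 (b0,+AT) for cystine and cationic amino acids, bring them into the cell. Exchangers and facilitators of the basolateral membrane, such as Slc7a7 (y+LAT1) and Slc7a8 (LAT2) with their shared heavy chain Slc3a2 (4F2hc), and Slc43a2 (LAT4), pass them to the blood. In humans, loss of SLC6A19 gives Hartnup disorder, loss of SLC3A1 or SLC7A9 gives cystinuria, and loss of SLC7A7 gives lysinuric protein intolerance. Leukocytes use another set for growth, among them Slc1a5 (ASCT2, glutamine), Slc38a1 and Slc38a2 (SNAT1 and SNAT2, small neutral amino acids), Slc7a1 (CAT1, arginine) and Slc7a11 (xCT, which takes up cystine for glutathione).

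The libraries held 4396 cells after panobinostat, 3472 after givinostat, 3979 after ruxolitinib and 3930 after vehicle, with medians of 6568.5, 10020.5, 8370 and 7957.5 unique molecular identifiers (UMIs, one per captured RNA molecule) per cell in the same order. Cells were clustered without the carriers and clusters were named from markers that include none of them, as X-like, since neither protein nor position was measured. No cluster carried the markers of podocytes or parietal cells. Levels are UMIs of a gene per 1000000 UMIs (CPM) of a cell class in a library, given where the class had at least 50 cells in that library. In all, 20 cell barcodes occurred in more than 1 library. Tubular RNA was also counted in other cells: 9 abundant genes of proximal tubule cells stood in T-like cells at a median of 5.27%, 4.28% and 3.72% of their proximal level after panobinostat, givinostat and ruxolitinib, and 3.67% after vehicle. Over macrophage-like and monocyte-like cells together the medians were 14.0%, 9.91% and 9.83% in the same drug order and 11.9% after vehicle. A carrier is called above that background in a class only where, in every library with enough cells, it had 20 CPM or more and the lower bound of its level exceeded 3 times its own proximal level scaled by this median.

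Of the 45 carriers, 30 reached 20 CPM in at least 1 class and library. The other 15 had highest levels between 1.64 and 19.3 CPM. They are the glial glutamate carriers Slc1a2 and Slc1a3, the serotonin carrier Slc6a4, the proline carrier Slc6a7, the glycine carrier Slc6a9, the betaine carrier Slc6a12, the cationic carriers Slc7a2 and Slc7a3, and Slc6a17, Slc7a4, Slc7a6, Slc7a14, Slc36a3, Slc38a4 and Slc38a7. By the rules that follow, the 30 were placed in a tubular set, in a leukocyte set, in both or in neither. At 20 CPM or more, 22 were found in proximal tubule-like cells. Above the tubular background, 12 were found in at least 1 leukocyte class. By these rules 6 belonged to both sets: the heavy chain Slc3a2, the taurine carrier Slc6a6, Slc38a2, the lysosomal arginine sensor Slc38a9, Slc38a10 and Slc43a2. The background rule asks more of a carrier the higher its proximal level, so the size of this overlap depends on the rule. The share of all genes that the same rules would place in each set or in both is not given. Whether the overlap is small for carriers can therefore not be told. In macrophage-like cells Slc7a7 had 42.1 to 61.3 CPM and met the background rule in 1 of 4 libraries. Slc7a8 met it there in 3 of 4. Neither set held Slc43a1, a carrier of branched-chain amino acids, or Slc43a3. Slc43a1 was detected mainly in erythroid-like cells, at 20.1, 33.6 and 6.56 CPM after panobinostat, givinostat and ruxolitinib, and at 0 UMIs in the 41 such cells of the vehicle library, where the class was under 50 cells.

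**Figure D1:**
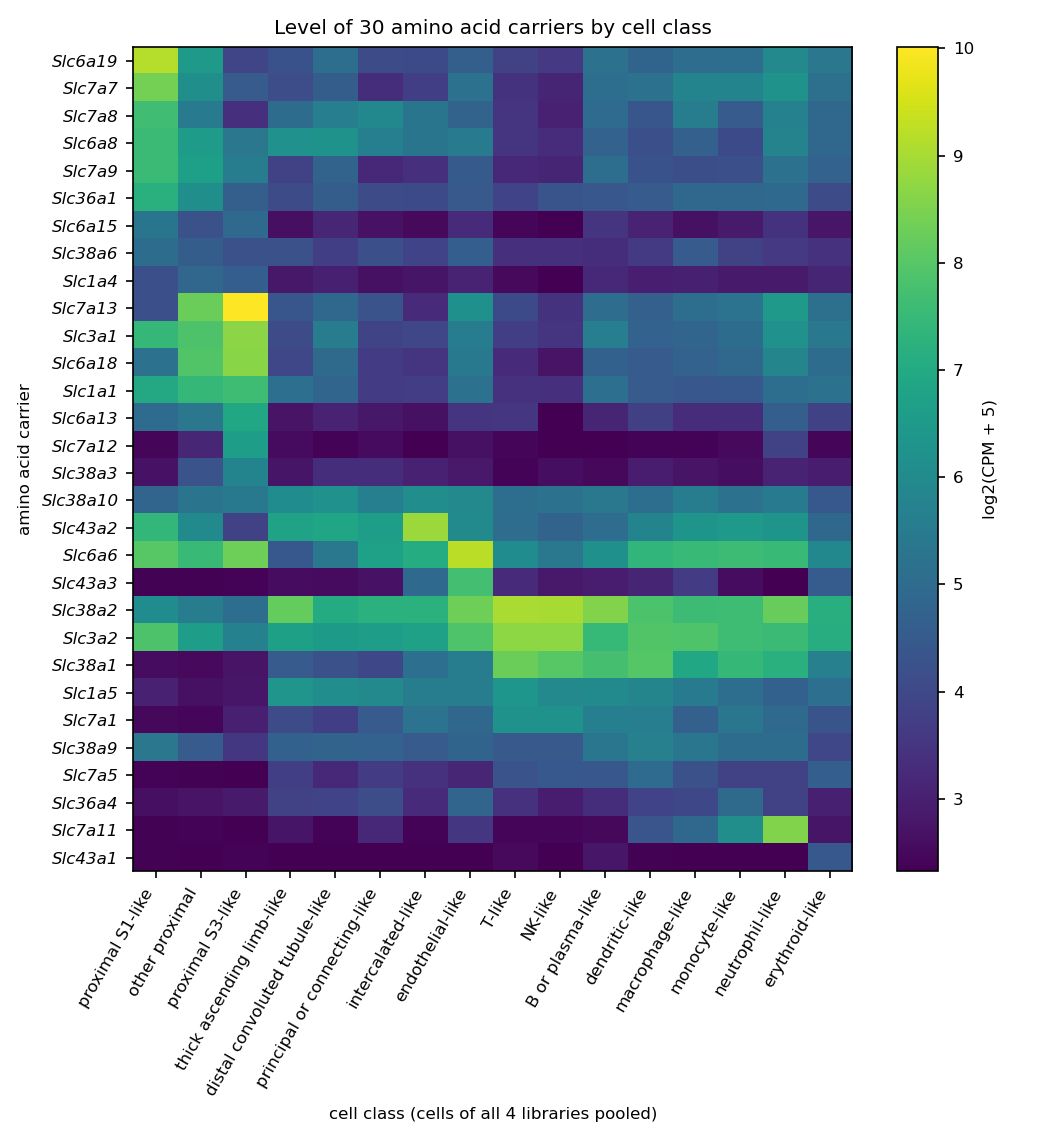
Colour gives the level of each of the 30 carriers that reached 20 CPM, as log2(CPM + 5), in each cell class, with the cells of all 4 libraries pooled. Slc7a13 in S3-like cells, Slc6a19 in S1-like cells, Slc6a6 in endothelial-like cells and Slc43a2 in intercalated-like cells stand out in the tubule and vessels, and Slc38a2, Slc3a2 and Slc38a1 in lymphocytes.

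Within the proximal tubule, some of the carriers separated the early segment S1 from the late segment S3. The S1-like cells (3 clusters) and S3-like cells (2 clusters) were named from other genes. For the carriers given as higher in S1-like or in S3-like cells, the direction held in each of the 4 libraries. Slc6a19 had 568, 612 and 525 CPM in S1-like cells after panobinostat, givinostat and ruxolitinib and 584 CPM after vehicle, a level 44.3 to 81.1 times that in S3-like cells of the same library. Slc7a7, at 310, 235 and 365 CPM in S1-like cells under the drugs in that order and 424 CPM under vehicle, was 16.7 to 31.1 times higher there than in S3-like cells. Slc43a2 was 11.2 to 34.1 times higher in S1-like cells, and the proton-coupled carrier Slc36a1 (PAT1) 4.45 to 11.0 times. The creatine carrier Slc6a8 was 4.35 to 5.76 times higher there, Slc3a2 3.62 to 6.08 times and Slc7a9 3.45 to 6.07 times. Slc7a8 had 214, 214 and 181 CPM in S1-like cells under the drugs and 172 CPM under vehicle, and 2.52 to 13.9 CPM in S3-like cells. Other carriers differed little: S1-like over S3-like ratios were 0.66 to 1.09 for Slc6a6 and 0.45 to 1.03 for Slc1a4. They were 1.10 to 1.60 for Slc6a15 and 0.50 to 0.80 for Slc38a10. Each of these had intervals that included 1 in some libraries. The share of all genes that differ between these segments is not given.

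The late segment had its own set. Slc7a13 (AGT1, an aspartate, glutamate and cystine light chain that pairs with Slc3a1) had 964, 1204 and 994 CPM in S3-like cells after panobinostat, givinostat and ruxolitinib and 983 CPM after vehicle. That level was 53.2 to 96.7 times the one in S1-like cells. The glutamine carrier Slc38a3 (SNAT3) was 20.8 to 43.3 times higher in S3-like cells, at 35.8 to 63.5 CPM. Slc6a18 (B0AT3), the second neutral amino acid carrier of the brush border, was 10.3 to 14.6 times higher there. Slc6a13, a carrier of GABA and betaine, was 3.35 to 5.35 times higher, and the heavy chain Slc3a1 2.24 to 2.52 times. Slc1a1 (EAAT3), the brush border carrier of glutamate and aspartate, differed least among the brush border carriers, at 1.47 to 1.84 times. The light chains that pair with Slc3a1 had opposite gradients: Slc7a13, like Slc3a1 itself, was higher in S3-like cells, and Slc7a9 was higher in S1-like cells.

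Most proximal tubule-like cells belonged to neither segment. Among them were cluster 0, led by Kap and Slco1a1, cluster 1, led by Slc22a30 and Atp11a, cluster 7, led by Cela1 and Ttr, and cluster 8, led by stress genes such as Pdk4, Angptl4 and Cyr61. Slc7a13 lay between its levels in the segments there, with 452, 310, 25.3 and 314 CPM in clusters 0, 1, 7 and 8 of the vehicle library, against 983 CPM in its S3-like and 10.2 CPM in its S1-like cells. S1-like cells made up 32.0% of proximal tubule-like cells after panobinostat, 28.8% after givinostat and 41.3% after ruxolitinib, and 28.8% after vehicle. The share of cluster 8 was 7.18%, 10.9% and 9.50% under the drugs in that order and 15.9% under vehicle. That of cluster 0 was 27.5%, 28.6% and 16.6% under the drugs and 24.0% under vehicle. A ratio over all proximal tubule-like cells carries these shares too, so ratios are also given inside the subsets.

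Over all proximal tubule-like cells, most carriers lay close to vehicle. Past the fold stood Slc7a8 and Slc43a2 (higher under each drug), Slc36a1 (higher after givinostat and ruxolitinib), Slc6a6 (higher after givinostat), Slc6a8 and Slc6a15 (higher after ruxolitinib), Slc38a2 (lower after panobinostat), Slc7a7 (lower after givinostat) and Slc7a13 (lower after ruxolitinib). A carrier was counted as past the fold when (CPM + 5) was at least 25% higher or 20% lower than in vehicle and 1 of the 2 libraries had 20 CPM or more. A carrier under 20 CPM in the other library passed through its higher library alone, so its difference is a description of those libraries and adds no support to a count. After panobinostat 3 of the 18 carriers that passed this filter on low values were counted, 2 higher and 1 lower, where the same rule counted 5.90% of 5546 genes. After givinostat it was 5 of 20, 4 higher and 1 lower, against 10.7% of 5703 genes. After ruxolitinib it was 6 of 20, 5 higher and 1 lower, against 12.8% of 5812 genes. The median log2 ratio of the carriers was -0.03, 0.13 and 0.18 in the same order, where all genes had medians of 0.02, 0.06 and 0.08. Scaling by TMM lowered all log2 ratios by 0.10 for givinostat and by 0.13 for ruxolitinib, which left 1 carrier (Slc7a7) and 2 carriers (Slc7a13 and Slc43a2) counted, so both counts depend on the scaling.

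Inside the subsets the shares past the fold were as follows. In S1-like cells 3 of 18 carriers passed after panobinostat (8.31% of all genes), 7 of 18 after givinostat (23.9%) and 2 of 18 after ruxolitinib (10.8%). In cluster 0 it was 5, 4 and 6 of 15 (11.2%, 19.0% and 19.9% of all genes), and in cluster 1 it was 5 of 20 under each drug (8.83%, 19.9% and 19.8%). In cluster 7 it was 9 of 15, 8 of 17 and 5 of 16 (40.0%, 37.1% and 34.7%), and in cluster 8 it was 6 of 20, 7 of 19 and 7 of 20 (12.1%, 19.8% and 16.7%). In S1-like cells after ruxolitinib the carriers' share was 11.1%, about that of all genes, and in cluster 7 after ruxolitinib it was 31.2%, below that of all genes.

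**Figure D2:**
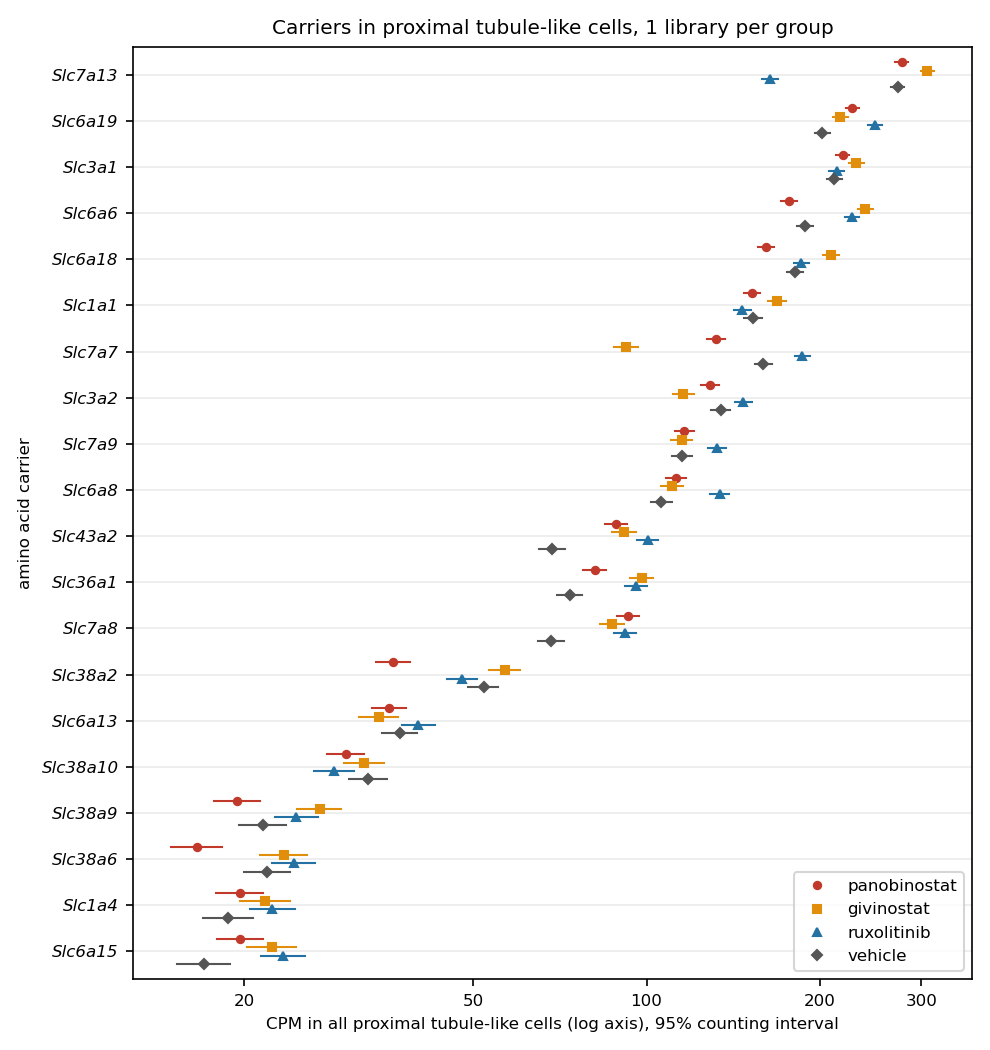
Points give the CPM of each of the 20 carriers that reached 20 CPM over all proximal tubule-like cells, on a log axis, for panobinostat, givinostat, ruxolitinib and vehicle, with lines for the 95% counting interval. Slc7a7 in the givinostat library (92.1 CPM) and Slc7a13 in the ruxolitinib library (164 CPM) lie far to the left of the other libraries, and Slc43a2 and Slc7a8 have vehicle as their lowest library.

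Of the brush border carriers, Slc3a1, Slc7a9, Slc1a1, Slc6a18 and Slc6a19 stayed within the fold over all proximal tubule-like cells under each drug. Slc3a1 had 219, 231 and 214 CPM after panobinostat, givinostat and ruxolitinib and 212 CPM after vehicle, with ratios between 1.01 and 1.09. Slc7a9 had 116, 115 and 133 CPM under the drugs and 115 CPM under vehicle. These are the chains of the cystine carrier, and neither was past the fold in S1-like cells. In cluster 7 both were lower after panobinostat, Slc3a1 with a ratio of 0.75 (0.63 to 0.89) and Slc7a9 with 0.79 (0.63 to 0.98). After ruxolitinib Slc7a9 was higher in cluster 0, with a ratio of 1.33 (1.11 to 1.60), and in cluster 8, with 1.30 (1.14 to 1.49). In S3-like cells the Slc7a9 ratio after givinostat was 0.61, with an interval (0.37 to 1.01) that included 1. Slc1a1 had 152, 168 and 147 CPM under the drugs and 153 CPM under vehicle. In S1-like cells it was higher after givinostat, at 132 CPM, against 104 CPM after vehicle, and in cluster 0 it was lower after ruxolitinib, at 106 CPM, against 141 CPM after vehicle. In cluster 7 it had 91.2 and 83.8 CPM after panobinostat and ruxolitinib, against 122 CPM after vehicle.

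Slc6a19, the main carrier of neutral amino acids in the early segment, had 228, 217 and 249 CPM under panobinostat, givinostat and ruxolitinib and 202 CPM under vehicle. In S1-like cells its ratios were 0.97 (0.93 to 1.02), 1.05 (1.00 to 1.10) and 0.90 (0.86 to 0.94). Its direction differed between the other subsets. In cluster 0 it had 29.1, 29.9 and 30.2 CPM under the drugs, against 20.6 CPM under vehicle. In cluster 8 it had 69.0, 62.7 and 75.5 CPM under the drugs, against 47.2 CPM under vehicle, while in cluster 7 it had 121, 103 and 121 CPM under the drugs, against 150 CPM under vehicle. Slc6a18, its relative of the late segment, had 325, 468 and 436 CPM in S3-like cells under the drugs and 343 CPM under vehicle, so that the givinostat and ruxolitinib libraries stood above the other two. In cluster 1 it had 277, 306 and 362 CPM under the drugs, against 245 CPM under vehicle, with a ruxolitinib ratio of 1.48 (1.37 to 1.60). In cluster 7 it was higher after givinostat, at 82.8 CPM, against 53.6 CPM after vehicle. At its low level in S1-like cells it had 22.3, 45.5 and 35.4 CPM under the drugs and 25.9 CPM under vehicle.

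Among the brush border carriers, Slc7a13 was the one past the fold over all proximal tubule-like cells. There it had 277 and 307 CPM after panobinostat and givinostat and 164 CPM after ruxolitinib, against 273 CPM after vehicle. The ratio for ruxolitinib was 0.60 (0.58 to 0.63). In cluster 0 the ruxolitinib library had 220 CPM, against 452 CPM in the vehicle library, a ratio of 0.49 (0.44 to 0.53). In cluster 1 the ratio was 0.73 (0.68 to 0.79), and in cluster 8 it was 0.58 (0.52 to 0.63). In S3-like cells, where Slc7a13 was highest, the ruxolitinib library had 994 CPM, against 983 CPM in the vehicle library, a ratio of 1.01 (0.93 to 1.10). The difference was thus measured in clusters 0, 1 and 8 and not in S3-like cells. With S1-like, S3-like and other proximal cells weighted equally, the log2 ratio was -0.14 and not past the fold. Kap, an abundant proximal gene known to be controlled by androgen in the mouse, was lower too over all proximal tubule-like cells. It had 32660 CPM there after ruxolitinib, against 48812 CPM after vehicle. Unlike Slc7a13, Kap was also lower in S3-like cells after ruxolitinib, with a ratio of 0.84 (0.83 to 0.84). In S1-like cells the Kap ratio was 0.66 (0.65 to 0.66). A link between Kap and Slc7a13 was not tested. After panobinostat and givinostat, Slc7a13 was higher than vehicle in cluster 8, at 394 and 400 CPM, against 314 CPM, and in cluster 1 after panobinostat, at 396 CPM, against 310 CPM. In cluster 7 it had 53.0 and 44.6 CPM after these drugs, against 25.3 CPM after vehicle.

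The other large difference in S3-like cells was Slc7a12, a relative of the light chains, which S1-like cells held at 0.20 to 0.96 CPM. It had 16.2 CPM after panobinostat, 80.5 CPM after givinostat and 124 CPM after ruxolitinib, against 141 CPM after vehicle. The panobinostat ratio was 0.11 (0.06 to 0.20) and the givinostat ratio 0.57 (0.42 to 0.78), while the ruxolitinib interval (0.69 to 1.12) included 1. In cluster 20, the larger of the 2 S3-like clusters, the panobinostat ratio was 0.07 (0.03 to 0.14). These counts came from few cells: 10 of 90 S3-like cells held a Slc7a12 UMI after panobinostat, 14 of 51 after givinostat and 20 of 95 after ruxolitinib, against 22 of 80 after vehicle. The highest cell alone held 21.4%, 35.9% and 26.0% of the UMIs in those drug libraries and 23.9% in the vehicle library, a concentration that the counting intervals do not cover. In S3-like cells as a whole 5 of 16 carriers were past the fold after panobinostat (34.9% of all genes), 8 of 17 after givinostat (42.7%) and 6 of 16 after ruxolitinib (37.0%), shares near those of all genes. Besides Slc7a12, Slc6a18, Slc6a6 and Slc7a7, those whose interval left out 1 were Slc6a15 after givinostat (34.0 CPM, against 17.4 CPM after vehicle) and, after ruxolitinib, Slc38a3 (63.5 CPM, against 35.8 CPM after vehicle) and Slc3a2 (62.6 CPM, against 41.3 CPM after vehicle). Slc38a3 was also higher in cluster 8 after panobinostat, at 25.7 CPM, against 18.4 CPM after vehicle.

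**Figure D3:**
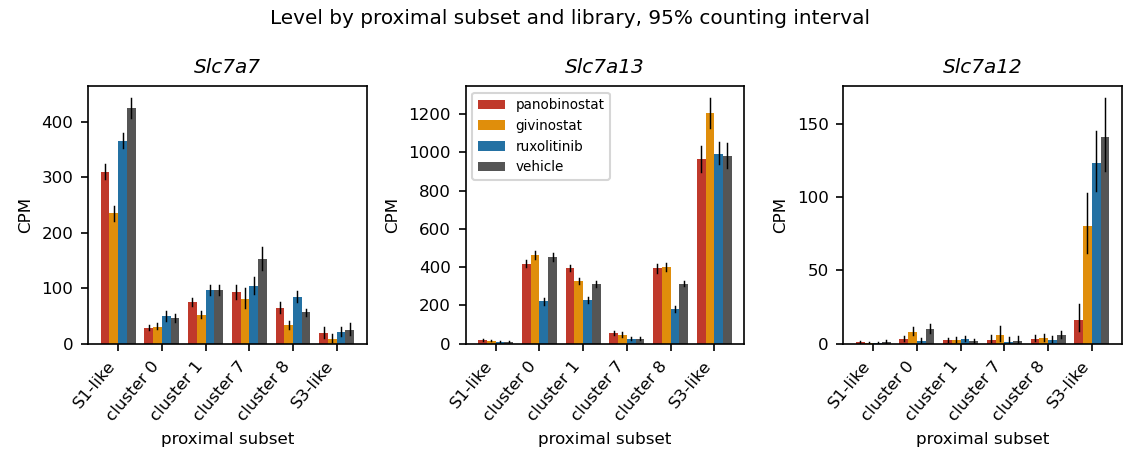
Bars give CPM of Slc7a7, Slc7a13 and Slc7a12 in S1-like cells, clusters 0, 1, 7 and 8 and S3-like cells for panobinostat, givinostat, ruxolitinib and vehicle, with 95% counting intervals. Slc7a7 is lowest after givinostat in S1-like cells (235 CPM), Slc7a13 is lowest after ruxolitinib in clusters 0, 1 and 8 but not in S3-like cells, and Slc7a12 is lowest after panobinostat in S3-like cells.

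Of the basolateral carriers, Slc7a7 exchanges cationic amino acids for neutral ones and sodium. It was lower in the givinostat library than in the vehicle library in S1-like cells and clusters 0, 1, 7 and 8. Over all proximal tubule-like cells it had 132 CPM after panobinostat, 92.1 CPM after givinostat and 186 CPM after ruxolitinib, against 159 CPM after vehicle. The givinostat ratio was 0.58 (0.54 to 0.61). In S1-like cells, its highest class, the givinostat library had 235 CPM, against 424 CPM in the vehicle library, a ratio of 0.55 (0.51 to 0.59). The ratios in clusters 0, 1, 7 and 8 were 0.67, 0.54, 0.53 and 0.59, and each interval lay below 1. In S3-like cells the ratio was 0.32 (0.10 to 0.80), from 7.55 CPM after givinostat, against 23.9 CPM after vehicle. There Slc7a7 passed the filter through the vehicle library alone, so that ratio describes these libraries and adds no support. Over the alternatives the log2 ratio after givinostat in all proximal tubule-like cells lay between -0.86 and -0.68. Panobinostat showed the same direction in S1-like cells, with a ratio of 0.73 (0.69 to 0.78), and in clusters 0, 1 and 7, with ratios of 0.63, 0.77 and 0.61; in cluster 8 its ratio was 1.15 (0.95 to 1.39). Ruxolitinib had a ratio of 0.86 (0.82 to 0.91) in S1-like cells, 0.68 (0.55 to 0.84) in cluster 7 and, in the opposite direction, 1.5 (1.27 to 1.77) in cluster 8.

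Slc7a7 spans bases 54369442 to 54417780 of chromosome 14 on the minus strand (GRCm38, which is mm10, GENCODE vM21). Its promoter is printed because, among the carriers that passed the filter on low values, it had the lowest ratio over all proximal tubule-like cells. RefSeq promoters of build GRCm38.p6 were at hand for 30 of the 45 carriers, and the 250 bases before each start were searched on both strands for GTTAAT, the half-site of the tubular factor HNF1, and TGATGNAA, the core of the amino acid response element to which ATF4 binds. GTTAAT occurred before a start of 3 of those 30 carriers (Slc7a7, Slc36a1 and Slc6a13), and of 7.49% of 27025 genes. TGATGNAA occurred before 2 of the 30 (Slc7a11 and Slc7a7), and before 3.91% of all genes. In the printed stretches the motifs did not overlap, and a match shows only that these letters stand there. Below are 1 of the 5 RefSeq starts of Slc7a7 (chr14:54409473-54409722, minus strand) and the start of Slc36a1 (chr11:55204090-55204339, plus strand), with GTTAAT in capitals, and the start of Slc7a11 (chr3:50443614-50443863, minus strand), the cystine carrier described below for myeloid cells, with TGATGNAA on either strand in capitals.
Slc7a7: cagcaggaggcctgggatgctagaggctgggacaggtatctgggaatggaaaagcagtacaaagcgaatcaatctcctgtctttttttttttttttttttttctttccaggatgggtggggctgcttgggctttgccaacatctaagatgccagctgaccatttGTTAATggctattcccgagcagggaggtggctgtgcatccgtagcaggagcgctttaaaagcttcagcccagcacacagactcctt
Slc36a1: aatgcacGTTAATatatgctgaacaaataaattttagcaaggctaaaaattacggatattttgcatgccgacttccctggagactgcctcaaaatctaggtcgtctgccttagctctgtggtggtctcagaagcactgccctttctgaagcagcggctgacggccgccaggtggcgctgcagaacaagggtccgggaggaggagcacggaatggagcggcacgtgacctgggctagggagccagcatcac
Slc7a11: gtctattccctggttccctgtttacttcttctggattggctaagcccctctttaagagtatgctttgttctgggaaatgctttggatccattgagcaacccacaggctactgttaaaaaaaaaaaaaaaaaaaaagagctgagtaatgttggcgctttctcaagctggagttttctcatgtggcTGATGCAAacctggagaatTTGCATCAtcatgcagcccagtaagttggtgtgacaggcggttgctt
The match in Slc7a7 began 86 bases before the start, and that in Slc36a1 243 bases before it. In Slc7a11 the 2 matches began 66 and 47 bases before the start, 1 on each strand. Slc7a12 and Slc7a13 were not among the 30.

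Slc7a8 and Slc43a2, the exchanger and the facilitator of neutral amino acids, were past the fold over all proximal tubule-like cells after each of the 3 drugs. Slc7a8 had 92.9, 87.1 and 91.7 CPM after panobinostat, givinostat and ruxolitinib, against 68.3 CPM after vehicle. Slc43a2 had 88.6, 91.5 and 100 CPM under the drugs, against 68.6 CPM under vehicle. All drug libraries lay above the shared vehicle library. Inside S1-like cells the differences were smaller: Slc7a8 had 214, 214 and 181 CPM under the drugs, against 172 CPM under vehicle, and the Slc43a2 ratios were 1.05 (0.96 to 1.16), 1.26 (1.14 to 1.39) and 1.15 (1.06 to 1.26). Slc43a2 stood higher in cluster 1 as well, at 88.7, 86.0 and 85.7 CPM under the drugs, against 61.6 CPM under vehicle. In cluster 7 its levels were 45.4, 48.4 and 45.8 CPM under the drugs and 44.7 CPM under vehicle. In cluster 0 it had 39.0, 43.6 and 38.6 CPM under the drugs, against 28.9 CPM under vehicle, and in cluster 8 its ratios were 1.69, 1.19 and 1.41. Slc7a8 had ratios of 1.42, 1.44 and 1.38 in cluster 0 and of 1.47, 1.49 and 1.31 in cluster 8, and in cluster 1 it was higher after panobinostat, at 65.9 CPM, against 51.1 CPM after vehicle. In cluster 7 it was lower after panobinostat, at 29.7 CPM, against 44.7 CPM after vehicle, so its direction differed between the subsets. The ruxolitinib ratios of these carriers over all proximal tubule-like cells, 1.34 and 1.46, accompany the larger share of S1-like cells in that library. With the proximal groups weighted equally their log2 ratios after ruxolitinib were 0.08 and 0.28, so that neither was past the fold, and after panobinostat that of Slc43a2 was 0.23, not past it. Without cluster 8, a setting chosen after seeing the data, the log2 ratio of Slc7a8 was 0.30, 0.24 and 0.32 under the drugs, each under the fold, and that of Slc43a2 was 0.22 after panobinostat, also under it. Slc3a2, the heavy chain of Slc7a7 and Slc7a8, had 129, 116 and 147 CPM under the drugs and 134 CPM under vehicle.

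**Figure D4:**
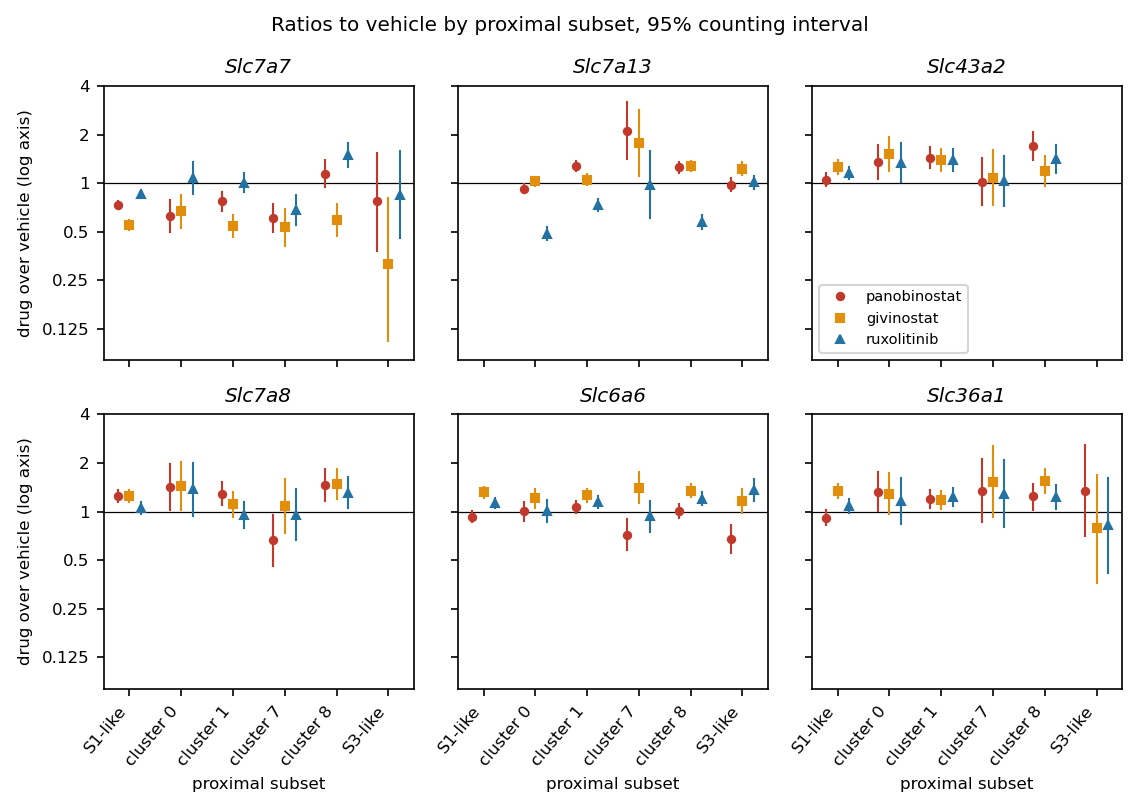
Points give the ratio of each drug library (panobinostat, givinostat, ruxolitinib) to vehicle, on a log axis, for 6 carriers in the proximal subsets that passed the filter on low values, with 95% counting intervals, and the line marks a ratio of 1. The givinostat points of Slc7a7 lie below 1 in all 6 subsets, and the ruxolitinib points of Slc7a13 lie below 1 in clusters 0, 1 and 8 and at 1.01 in S3-like cells. The givinostat point of Slc7a7 in S3-like cells passed that filter through the vehicle library alone.

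Carriers of osmolytes and of creatine followed. The taurine carrier Slc6a6 had 177, 240 and 227 CPM over all proximal tubule-like cells after panobinostat, givinostat and ruxolitinib, against 188 CPM after vehicle. After givinostat its ratio was 1.27 (1.22 to 1.33), and it lay between 1.17 and 1.41 in all 6 subsets, with the S3-like interval (0.98 to 1.39) including 1. In S3-like cells Slc6a6 had 199 CPM after panobinostat, 342 CPM after givinostat and 399 CPM after ruxolitinib, against 293 CPM after vehicle, so that it was past the fold downward after panobinostat and upward after ruxolitinib, with a ratio of 1.36 (1.17 to 1.59). The highest S3-like cell held 13.4%, 32.0% and 14.2% of these UMIs in the drug libraries and 24.4% in the vehicle library, which the counting intervals do not cover. In cluster 7 it was lower after panobinostat, at 84.0 CPM, against 117 CPM after vehicle. The creatine carrier Slc6a8 had a ratio of 1.26 (1.19 to 1.34) after ruxolitinib over all proximal tubule-like cells, of 1.03 (0.95 to 1.11) in S1-like cells and of 1.44 (1.26 to 1.64) in cluster 1. With equal segment weights its log2 ratio after ruxolitinib was 0.11, and that of Slc36a1 was 0.14, both within the fold. Slc6a13 had 35.7, 34.3 and 40.2 CPM under the drugs and 37.3 CPM under vehicle, with all 3 intervals of the ratio including 1. In cluster 1 it was higher after ruxolitinib, at 44.9 CPM, against 31.0 CPM after vehicle. Slc6a15 (B0AT2), a branched-chain amino acid and proline carrier known mainly from brain, was detected in S1-like cells at 30.7, 40.8 and 38.7 CPM under the drugs and 27.8 CPM under vehicle.

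Carriers of lysosomes and endosomes were few. Slc36a1, which moves small amino acids with protons, had 81.2, 98.1 and 95.8 CPM over all proximal tubule-like cells after panobinostat, givinostat and ruxolitinib, against 73.6 CPM after vehicle. In S1-like cells, its highest class, it had 123, 179 and 145 CPM under the drugs, against 134 CPM under vehicle, so that the givinostat library stood apart, with a ratio of 1.34 (1.21 to 1.48). In cluster 8 the givinostat ratio was 1.54 (1.30 to 1.82), and in cluster 0 the panobinostat ratio was 1.33 (1.01 to 1.75). Slc38a9, the arginine sensor of the lysosome, had 31.4, 42.6 and 36.3 CPM in S1-like cells under the drugs and 36.0 CPM under vehicle, and in cluster 1 it was higher after givinostat, with a ratio of 1.41 (1.12 to 1.79). Less is known of Slc38a6 and Slc38a10. Slc38a6 had 12.5 CPM in cluster 8 after panobinostat, against 27.8 CPM after vehicle, a ratio of 0.45 (0.30 to 0.65). It was higher in cluster 1 after givinostat, at 29.1 CPM, against 22.2 CPM after vehicle, and in cluster 7 after ruxolitinib, at 20.5 CPM, against 7.45 CPM after vehicle. Slc38a10 had 20.04 CPM in S1-like cells after panobinostat, against 28.6 CPM after vehicle, and in cluster 7 it had 21.1 CPM after ruxolitinib, against 34.3 CPM after vehicle. The neutral amino acid exchanger Slc1a4 (ASCT1) had 38.0 CPM in cluster 8 after ruxolitinib, against 25.5 CPM after vehicle.

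Slc38a2 is a carrier that cells raise when amino acids are scarce. It was lower than vehicle over all proximal tubule-like cells after panobinostat and higher than vehicle in the distal nephron after givinostat. Over all proximal tubule-like cells it had 36.3 CPM after panobinostat, 56.7 CPM after givinostat and 47.9 CPM after ruxolitinib, against 52.1 CPM after vehicle. The panobinostat ratio was 0.70 (0.64 to 0.76), in S1-like cells it was 0.76 (0.65 to 0.88), and in cluster 1 it was 0.71 (0.59 to 0.85). In clusters 0, 7 and 8 and in S3-like cells Slc38a2 was not counted as past the fold after panobinostat. S3-like cells held 22 UMIs of it in the panobinostat library and 22 in the vehicle library. In thick ascending limb-like cells Slc38a2 had 217, 399 and 276 CPM under the drugs, against 230 CPM under vehicle, and the givinostat ratio was 1.74 (1.57 to 1.92). Clustering at a resolution of 1.5 gave a log2 ratio of 0.40 there, in place of 0.78. In distal convoluted tubule-like cells the givinostat library had 190 CPM, against 105 CPM in the vehicle library, a ratio of 1.82 (1.41 to 2.34). Smaller givinostat ratios were measured in cluster 8 (1.39), macrophage-like cells (1.30), intercalated-like cells (1.24), dendritic-like cells (1.22) and T-like cells (1.11, interval 1.05 to 1.18). In S1-like cells the givinostat interval (0.83 to 1.12) included 1.

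In the distal nephron the carriers of the proximal tubule were mostly at or near the tubular background. Above it in thick ascending limb-like cells stood Slc1a5, Slc3a2, Slc6a8, Slc38a2, Slc38a10 and Slc43a2. There, 5 of 15 carriers were past the fold after panobinostat (21.7% of all genes), 5 of 10 after givinostat (23.7%) and 5 of 12 after ruxolitinib (24.7%), and only Slc38a2 among them was above background in every library. The 9 proximal genes stood in these cells at a median of 12.03%, 2.69% and 3.58% of their proximal level after panobinostat, givinostat and ruxolitinib and 8.18% after vehicle. The highest of the 9 exceeded its proximal level there in every library. Slc7a13 had 29.3, 6.07 and 5.401 CPM there after panobinostat, givinostat and ruxolitinib and 30.3 CPM after vehicle. Slc1a1 and Slc6a6 were also lower than vehicle after givinostat and ruxolitinib and not after panobinostat. Slc7a8 was higher under each drug, at 43.2, 32.8 and 25.7 CPM, against 19.2 CPM under vehicle. Slc6a19 and Slc7a7 were past the fold after panobinostat, at 27.0 and 20.9 CPM, against 14.4 and 11.8 CPM after vehicle. The part of free RNA in these differences was not tested. In intercalated-like cells Slc43a2 reached its highest level anywhere, 475 CPM after givinostat and 411 CPM after ruxolitinib, against 493 CPM after vehicle, and the panobinostat library had too few of these cells. Endothelial-like cells had the highest Slc6a6, 490 CPM after givinostat and 668 CPM after ruxolitinib. They also had the highest Slc43a3, a purine base carrier by its known function, at 311 and 233 CPM in those libraries; the other libraries had under 50 such cells.

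Among leukocytes, T-like and NK-like cells had high levels of the growth carriers. T-like cells leave out clusters 12 and 28, of 507 and 135 cells, which were closest to T cells by markers but stayed unnamed. Slc38a2 had 514, 564 and 438 CPM in T-like cells after panobinostat, givinostat and ruxolitinib and 508 CPM after vehicle. Slc38a1 had 249, 317 and 318 CPM under the drugs and 297 CPM under vehicle, and Slc7a1 had 65.8, 75.1 and 70.7 CPM under the drugs and 64.1 CPM under vehicle. Of the carriers that passed the filter in T-like cells, 4 of 9 were past the fold after panobinostat (20.9% of all genes), 0 of 8 after givinostat (18.7%) and 0 of 8 after ruxolitinib (18.0%). The intervals of 2 of the 4 left out 1: Slc38a9, higher at 22.1 CPM, against 12.7 CPM after vehicle, and Slc1a5, lower at 64.6 CPM, against 87.7 CPM after vehicle. Slc38a9 passed the filter through the panobinostat library alone, and it had 18.8 and 16.0 CPM after givinostat and ruxolitinib. The panobinostat library had 29 cells of cluster 15, a T-like cluster, against 116 in the vehicle library; in cluster 2 its Slc1a5 ratio was 0.82 (0.60 to 1.13), within the fold, and in cluster 6 it was 0.68 (0.42 to 1.05), past the fold. In cluster 6 the ruxolitinib ratio of Slc1a5 was 0.72, and its interval ended at 0.998. In clusters 2 and 6, the largest T-like clusters, 3 of 9 and 4 of 9 carriers were past the fold after panobinostat (23.9% and 42.9% of all genes), 1 of 9 and 1 of 8 after givinostat (26.6% and 30.6%), and 1 of 8 and 2 of 8 after ruxolitinib (30.6% and 33.0%). Slc7a1 in cluster 2 had 57.8 and 60.2 CPM after givinostat and ruxolitinib, against 38.8 CPM after vehicle, whereas cluster 6 had 68.3 and 62.5 CPM after these drugs, against 81.7 CPM after vehicle.

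In NK-like cells Slc38a1 had 248, 267 and 298 CPM under the drugs, against 186 CPM under vehicle, and the givinostat and ruxolitinib intervals left out 1. Slc1a5 in these cells was 29.3 CPM after panobinostat, against 87.5 CPM after vehicle, a ratio of 0.33 (0.16 to 0.68). Slc7a5 (LAT1), the exchanger of large neutral amino acids that activated lymphocytes use, had 13.5, 12.6 and 14.5 CPM in NK-like cells under the drugs, against 36.5 CPM under vehicle, and the givinostat interval (0.13 to 0.92) left out 1. It passed the filter through the vehicle library alone, and the givinostat comparison rests on 10 UMIs in each library. Of the carriers in NK-like cells, 8 of 11 were past the fold after panobinostat (53.0% of all genes), 6 of 9 after givinostat (51.0%) and 6 of 11 after ruxolitinib (55.8%), with 55 to 107 such cells per library.

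Slc3a2, the heavy chain that Slc7a5, Slc7a7, Slc7a8 and Slc7a11 share, was lower than vehicle in every drug library in T-like, NK-like, dendritic-like, macrophage-like and monocyte-like cells. The givinostat intervals in NK-like, macrophage-like and monocyte-like cells and the panobinostat interval in monocyte-like cells included 1. In T-like cells it had 409, 404 and 378 CPM after panobinostat, givinostat and ruxolitinib, against 466 CPM after vehicle, with ratios of 0.88 (0.80 to 0.96), 0.87 (0.81 to 0.93) and 0.81 (0.75 to 0.88). In dendritic-like cells it had 234, 247 and 208 CPM under the drugs, against 277 CPM under vehicle. Over macrophage-like and monocyte-like cells together it had 194, 217 and 190 CPM under the drugs, against 239 CPM under vehicle. Since all 3 are set against one vehicle library, these are not 3 separate observations. In S1-like cells, too, Slc3a2 was lower in each drug library, at 236, 199 and 227 CPM, against 241 CPM under vehicle, and the givinostat interval (0.76 to 0.90) left out 1. It was past the fold in cluster 7 after panobinostat, at 91.7 CPM, against 118 CPM after vehicle.

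Slc7a11 was highest in neutrophil-like cells. Over the 93 such cells of all libraries it had 316 UMIs, or 372 CPM (332 to 415), and no library held 50 of them. Monocyte-like cells followed, with 51.1, 63.8 and 85.8 CPM after panobinostat, givinostat and ruxolitinib, against 51.1 CPM after vehicle, and the ruxolitinib ratio was 1.68 (1.24 to 2.30). Its levels in T-like cells lay between 0 and 0.76 CPM. In macrophage-like cells it had 10.8 CPM after panobinostat, against 32.7 CPM after vehicle, and in dendritic-like cells 7.33 CPM after ruxolitinib, against 21.3 CPM after vehicle. Those differences rest on few cells with a UMI, 8 against 14 macrophage-like cells and 13 against 28 dendritic-like cells. Monocyte-like cells also held Slc36a4, a carrier of proline and tryptophan, at 23.1, 26.7 and 32.5 CPM under the drugs and 23.4 CPM under vehicle. Over both myeloid classes together 2 of 17 carriers were past the fold after panobinostat (18.1% of all genes), 2 of 18 after givinostat (28.3%) and 5 of 18 after ruxolitinib (22.5%). Of those, Slc7a11 and Slc3a2 after ruxolitinib were above the tubular background in every library. Slc7a13, counted as lower after each drug, was not, and its direction after panobinostat and givinostat turned when cells were clustered at a resolution of 0.5 or with the carriers kept. In the vehicle library 62.4% of its UMIs in monocyte-like cells came from 1 cell. In dendritic-like cells 10 of 20 carriers were past the fold after panobinostat (28.1% of all genes), 4 of 14 after givinostat (22.9%) and 6 of 15 after ruxolitinib (23.0%). Of the 10, only Slc43a2 was above background in every library, at 65.5 CPM after panobinostat, against 45.7 CPM after vehicle, and the 9 proximal genes had a median of 19.7%, 7.22% and 10.6% of their proximal level in the 3 drug libraries and 6.22% in the vehicle library. Slc1a5, above background, had 69.0 CPM after givinostat, against 47.4 CPM after vehicle.

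**Figure D5:**
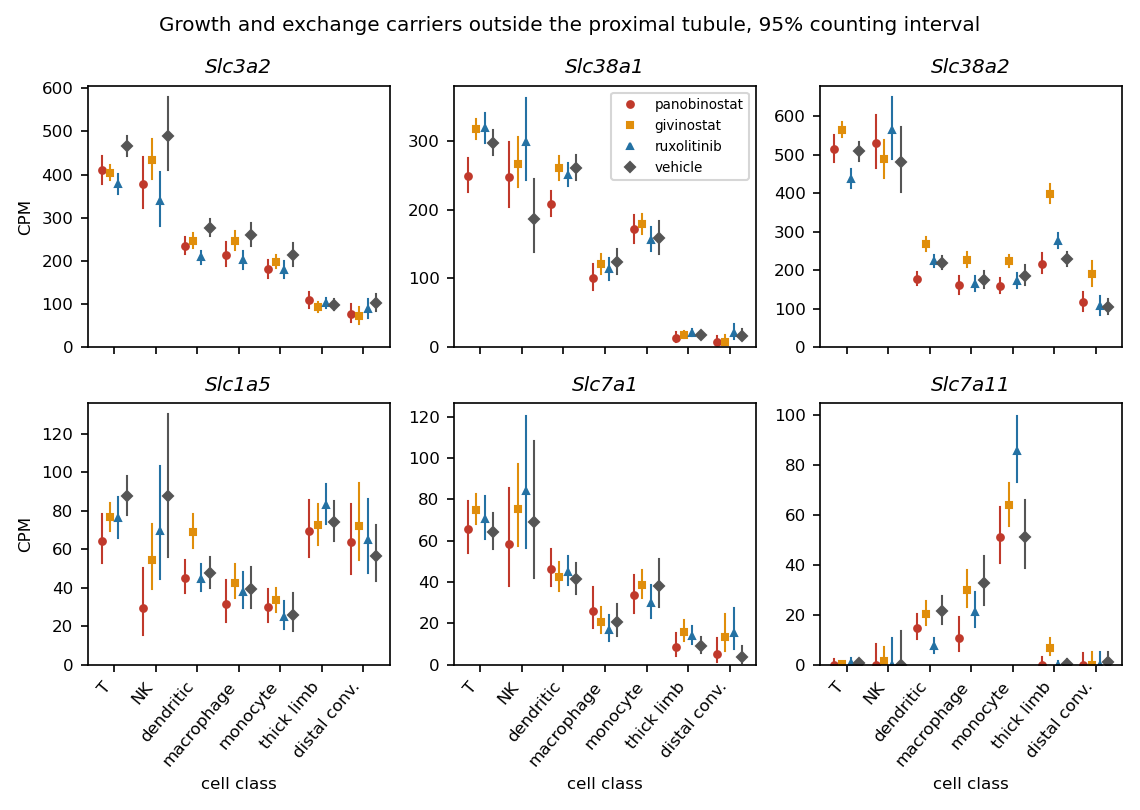
Points give CPM of 6 growth and exchange carriers in leukocyte classes and 2 distal tubule classes for panobinostat, givinostat, ruxolitinib and vehicle, with 95% counting intervals. In T-like cells Slc3a2 is highest after vehicle (466 CPM), Slc38a2 in thick ascending limb-like cells is highest after givinostat (399 CPM), and Slc7a11 in monocyte-like cells is highest after ruxolitinib (85.8 CPM).

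Related genes were followed as lists. Tmem27 (collectrin) is known to bring Slc6a19 and its relatives to the surface. Over all proximal tubule-like cells it had 1154, 1302 and 1251 CPM after panobinostat, givinostat and ruxolitinib and 1157 CPM after vehicle, within the fold under each drug. Of 7 mitochondrial amino acid carriers, 4, 5 and 5 passed the filter over all proximal tubule-like cells after panobinostat, givinostat and ruxolitinib, and 0 were past the fold there or in S1-like cells. In S3-like cells 1 of 4, 3 of 5 and 1 of 5 were past it in the same drug order, where 34.9%, 42.7% and 37.0% of all genes were. After givinostat Slc25a44 was higher and Slc25a15 and Slc25a38 were lower. Slc25a38 was also lower after panobinostat and Slc25a15 after ruxolitinib. Among these, only the interval of Slc25a15 after givinostat (0.30 to 0.85) left out 1. Slc25a44 passed the filter through the givinostat library alone, and Slc25a38 through the vehicle library alone. Of 9 genes of the response to amino acid stress, 4 passed the filter over all proximal tubule-like cells. Ddit3, a stress factor, was lower after panobinostat and givinostat, at 27.6 and 30.1 CPM, against 39.6 CPM after vehicle. Inside S1-like cells it was not lower, at 39.2, 40.6 and 45.7 CPM after panobinostat, givinostat and ruxolitinib, against 34.5 CPM after vehicle, and only ruxolitinib was past the fold. In T-like cells it was higher after panobinostat and givinostat, with ratios of 1.55 (1.31 to 1.83) and 1.26 (1.11 to 1.44). Psat1, an enzyme of serine synthesis, was lower over all proximal tubule-like cells after givinostat, at 23.4 CPM, against 33.5 CPM after vehicle. After ruxolitinib 0 of the 4 were past the fold over all proximal tubule-like cells. In S3-like cells 4 of the 5 that passed after ruxolitinib were past the fold upward, where 37.0% of all genes were past it either way. Those 4, Chac1, Ddit3, Phgdh and Ddit4, had 1.09, 9.78, 5.43 and 9.78 CPM after vehicle. They passed the filter through the ruxolitinib library alone, so their count adds no support. The remaining gene, Atf4, had a ratio of 0.93 (0.68 to 1.27). Of the Chac1 UMIs in S3-like cells after ruxolitinib, 78.7% came from 1 cell. The peptide carrier Slc15a2 (PEPT2) was lower in S3-like cells after panobinostat and ruxolitinib, at 160 and 142 CPM, against 237 CPM after vehicle, while the givinostat library had 257 CPM. In S1-like cells it was higher, with ratios of 1.32 (1.12 to 1.56) after panobinostat and 1.40 (1.17 to 1.67) after givinostat. In T-like cells it had 20.9, 30.01 and 20.9 CPM under the drugs, against 3.84 CPM under vehicle.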

How the data were processed

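Whole kidneys of 4 groups were profiled by droplet sequencing of 3′ ends, with 1 library per group. Per the submitters' processing notes, Cell Ranger 3.0.1 and build mm10 were used. As deposited by the authors, the table gives raw counts of UMIs in whole numbers. Their filter on cells is not given in the sources used here. Cells with at least 200 genes, 500 UMIs and under 50% mitochondrial UMIs were kept, 15777 of 16003. The libraries held 36861583 to 45075309 UMIs. Doublet calls (Scrublet, 0.0255% to 2.30% of a library) were left in the results shown. They are too few in 3 of the libraries to count as a working call.

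With scanpy 1.11.5 and leidenalg 0.10.2 (Python 3.11.15), 2000 variable genes without the carriers, 30 components and 15 neighbours gave 32 clusters at a resolution of 1. A class needed 3 detected markers, and 30 clusters were named. UMIs were summed per class and library and divided by the class total. Levels have exact Poisson intervals and ratios have conditional binomial intervals, both of 95% and for counting error only, computed with scipy 1.17.1 and tested on simulated data. The call used a pseudocount of 5 CPM and a floor of 20 CPM. Genes named with values are carriers at 20 CPM or more in a class, those past the fold whose interval leaves out 1, and carriers of the same role. Others are given by count. In the text this naming covers the proximal subsets and the classes above free tubule RNA. Other scalings, used only as alternatives, were DESeq2 1.42.0 size factors and TMM from edgeR 4.0.16, run in R 4.3.3. All 45 carriers were found in GENCODE vM21. Motifs were searched in RefSeq promoters. The carriers and lists were chosen with earlier results of these data known. One gene of the partner list is not reported here.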

Additional observations from a re-analysis of the deposited data

Results flagged for a closer look

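Opposite directions were looked for among S1-like and S3-like cells, clusters 0, 1, 7 and 8 and, only for carriers above the tubular background in every library, the thick ascending limb-like and leukocyte classes. Under that limit, in 4 cases a carrier was past the fold in opposite directions in 2 classes of the same drug library, with both counting intervals leaving out 1, and the difference between the classes was not tested. Slc3a2 after ruxolitinib had a log2 ratio of 0.55 in S3-like cells and of -0.52 in NK-like cells, which are 1.07 apart. Slc6a19 after givinostat had 0.45 in cluster 0 and -0.52 in cluster 7, which are 0.97 apart. Slc7a7 after ruxolitinib had 0.54 in cluster 8, the proximal cluster led by stress genes, and -0.53 in cluster 7, which are 1.07 apart. Slc7a8 after panobinostat had 0.49 in cluster 8 and -0.52 in cluster 7, which are 1.01 apart. In cluster 7, 34.7% to 40.0% of all genes were past the fold, and in NK-like cells 55.8% were after ruxolitinib. On the other side of the pairs it was 37.0% in S3-like cells after ruxolitinib and 19.0% in cluster 0 after givinostat. In cluster 8 it was 16.7% after ruxolitinib and 12.1% after panobinostat. The share of all genes that meet the same rule of opposite directions is not given, so the 4 cases have no background to be read against.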

How the results depend on the processing

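Each group has 1 library, so nothing here measures the spread between mice. No paired analysis was possible because each group has 1 library. No library could be left out for the same reason. Of the 182 other settings of 13 counts, 117 stayed within 1.5 times the count shown and 65 did not. Those 65 follow, each as a number of carriers past the fold, for panobinostat, givinostat and ruxolitinib by name. The cause was not tested, apart from floors and folds, which change what is counted.

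In proximal tubule-like cells panobinostat gave 5 at a floor of 10 CPM, 5 with no floor, 5 with equal segment weights and 0 at a fold of 1.5. There givinostat gave 1 by TMM, 1 by DESeq2 size factors, 1 at a fold of 1.5, 3 at a pseudocount of 20 CPM and 3 among cells over the highest UMI floor (5272). There ruxolitinib gave 2 by TMM, 2 by DESeq2 size factors, 2 with equal segment weights, 3 at a pseudocount of 20 CPM and 1 at a fold of 1.5. In thick ascending limb-like cells panobinostat gave 3 by TMM, at a pseudocount of 20 CPM and at a fold of 1.5, 0 at a floor of 50 CPM and 12 with no floor. Givinostat gave 3 under the stricter cell filter, 11 and 1 at floors of 10 and 50 CPM and 16 with no floor. Ruxolitinib gave 3 under the stricter cell filter, 10 and 0 at those floors, 13 with no floor and 2 at a fold of 1.5.

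In T-like cells panobinostat gave 2 at a pseudocount of 20 CPM, 7 and 1 at floors of 10 and 50 CPM, 9 with no floor and 1 at a fold of 1.5. Givinostat, with 0 as shown, gave 2 over the highest UMI floor, 3 at a clustering resolution of 0.5, 1 at a pseudocount of 1 CPM, 1 at a floor of 10 CPM and 6 with no floor. Ruxolitinib, also with 0, gave 2 over the highest UMI floor, 3 at a resolution of 0.5, 1 by TMM, 1 by DESeq2 size factors, 2 at a floor of 10 CPM and 6 with no floor. Over macrophage-like and monocyte-like cells, panobinostat gave 4 under the stricter cell filter, 5 over the highest UMI floor, 8 at a resolution of 0.5, 5 and 1 at floors of 10 and 50 CPM, 7 with no floor and 1 at a fold of 1.5. Givinostat gave 4 under the stricter filter, 5 over the highest UMI floor, 6 without called doublets, 4 at a resolution of 0.5, 5 at a pseudocount of 1 CPM, 4 at a floor of 10 CPM, 9 with no floor and 0 at a fold of 1.5. Ruxolitinib gave 9 over the highest UMI floor, 8 and 2 at pseudocounts of 1 and 20 CPM, 3 at a floor of 50 CPM, 11 with no floor and 2 at a fold of 1.5.

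Of 388 settings of 36 ratios, 326 stayed within the counting interval, 58 left it and 4 turned direction. The 4 are Slc7a13 over macrophage-like and monocyte-like cells, whose log2 ratio was 0.638 at a resolution of 0.5 and 0.242 with the carriers kept for panobinostat, and 0.645 and 0.156 for givinostat. Leaving out the proximal cluster led by stress genes, an alternative chosen after seeing the data, kept each proximal count within 1.5 times the one shown. The carriers counted were not the same, though. Slc7a8 then fell under the fold after each drug, and Slc43a2 did so after panobinostat.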
